A study of Drosophila melanogaster with 2 samples.

Results

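The genes described here encode the translation initiation and elongation factors of Drosophila melanogaster. They were taken as every protein-coding gene of the Ensembl BDGP6 annotation whose symbol starts with eIF or eEF, a rule that uses no measured value and gave 52 of 13968 protein-coding genes. Binding of CG6654, a C2H2 zinc finger protein with a zinc finger-associated domain, was mapped by ChIP-seq in whole embryos aged 0 to 12 h and of both sexes. All embryos came from 1 transgenic line in which CG6654 carries GFP as a C-terminal fusion. Chromatin was precipitated through the GFP, so it is the tagged protein that was mapped. There was 1 group of 2 biological replicates, numbered 1 and 3, and no other genotype or treatment, and the control experiment named in the labels was not analysed here. Each value averages over stages and cell types, and binding in few cells and weak binding in many cells cannot be told apart.

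Initiation factors bring the initiator tRNA and the small ribosomal subunit to the capped end of an mRNA, scan for the start codon and join the large subunit. Elongation factors then deliver each aminoacyl-tRNA and move the ribosome along the message. Most genes of the translation machinery are active in nearly all cells, and in flies many of them carry a start site with a pyrimidine-rich TCT initiator or a nearby DRE, the DNA replication-related element.

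The sequences that follow come from the summits or start sites of bound genes, and are shown because they differ in base composition and in the short motifs they hold. They are read from the RefSeq Release 6 genome (dm6), 5′ to 3′ on the strand of the named gene. For eEF1gamma (chr3R:29220112-29220197, plus strand) and eIF1 (chr3L:3222974-3223074, plus strand) capitals mark the DRE, TATCGATA. For eEF2 (chr2L:21682096-21682125, minus strand, from 9 bases before a start site to 20 after it) they mark CTTT, the core of the TCT initiator, and the IDR summit lies downstream of this stretch. For eIF4EHP (chr3R:24109126-24109226), eIF2beta (chr3L:12526967-12527067) and eIF3h (chr2L:5052431-5052531), all on the minus strand, they mark the 11 bases centred on the summit, since neither a DRE nor ACAGTTTG lay there. The last line holds the summit of the highest peak of the whole set with 50 bp on each side (chr3R:22794114-22794214, plus strand, between genes), and its capitals mark the reverse complement of ACAGTTTG, the word that led among peaks away from these 52 genes.
eEF1gamma: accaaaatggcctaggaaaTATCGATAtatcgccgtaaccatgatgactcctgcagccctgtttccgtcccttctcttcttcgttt
eIF1: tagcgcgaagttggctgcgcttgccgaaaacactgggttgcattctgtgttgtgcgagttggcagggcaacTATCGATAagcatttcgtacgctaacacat
eEF2: gcagcgcctcgctCTTTcctgtcgaaacgc
eIF4EHP: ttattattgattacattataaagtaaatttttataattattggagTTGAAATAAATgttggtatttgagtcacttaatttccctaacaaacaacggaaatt
eIF2beta: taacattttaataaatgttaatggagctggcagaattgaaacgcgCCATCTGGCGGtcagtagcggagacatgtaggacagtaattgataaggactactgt
eIF3h: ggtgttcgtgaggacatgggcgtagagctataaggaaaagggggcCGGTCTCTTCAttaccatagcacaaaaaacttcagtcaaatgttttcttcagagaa
other peak: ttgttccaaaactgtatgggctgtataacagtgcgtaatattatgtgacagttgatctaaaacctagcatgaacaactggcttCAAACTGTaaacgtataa

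The lists behind every value are the authors' regions on dm6. The thresholded set, named IDR after the irreproducible discovery rate used to select it, held 2962 peaks. A peak of this set need not have a region in the lists of both replicates. The unthresholded lists of the pooled reads, replicate 1 and replicate 3 held 30000 regions each. A region's signal is the authors' own value, without a stated scale, and it is ranked only within its list. The IDR peaks carried pooled signals from 74.83 to 8385 with a median of 128.9, and the lowest signals of the pooled, replicate 1 and replicate 3 lists were 19.71, 12.6 and 12.35. The lists give no read totals, so the depth is unknown, and a gene without a region in a list is below that list's floor rather than free of binding. A gene is called bound here when the summit of an IDR peak lay within 500 bp of any of its annotated start sites.

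Peaks of the IDR set lay at the start sites of 11 of the 52 genes (21.2%), against 10.9% of all protein-coding genes. The bound genes were eIF6, eIF4EHP, eEF1gamma, eIF1, eIF3h, eEF5, eEF1alpha1, eIF5B, eIF3c, eIF2beta and eEF2, in falling order of signal. Their peaks were of ordinary height: the median signal was 136.3, against 141.6 over the 1524 bound genes of the genome, and the range was 88.73 to 603.7. The deposited −log10 q-value was 3.65 at 10 of the 11 peaks and 3.21 at eEF2. In the pooled list 22 of the 52 genes had a region at a start site (42.3%), against 37.1% of all genes. The shares differed between the replicates. Replicate 1 had a region at 12 of the 52 genes (23.1%), against 26.6% of all genes, and replicate 3 at 30 (57.7%), against 46.0%. Among the 2962 top-ranked regions of each replicate, as many as the IDR set holds, replicate 1 reached 6 of the 52 genes (11.5%, against 9.19% of all genes) and replicate 3 reached 12 (23.1%, against 11.5%). Replicate 1 alone therefore gave these genes about the share of the whole genome, and the higher share came with replicate 3 and with the lists that include it.

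**Figure D1:**
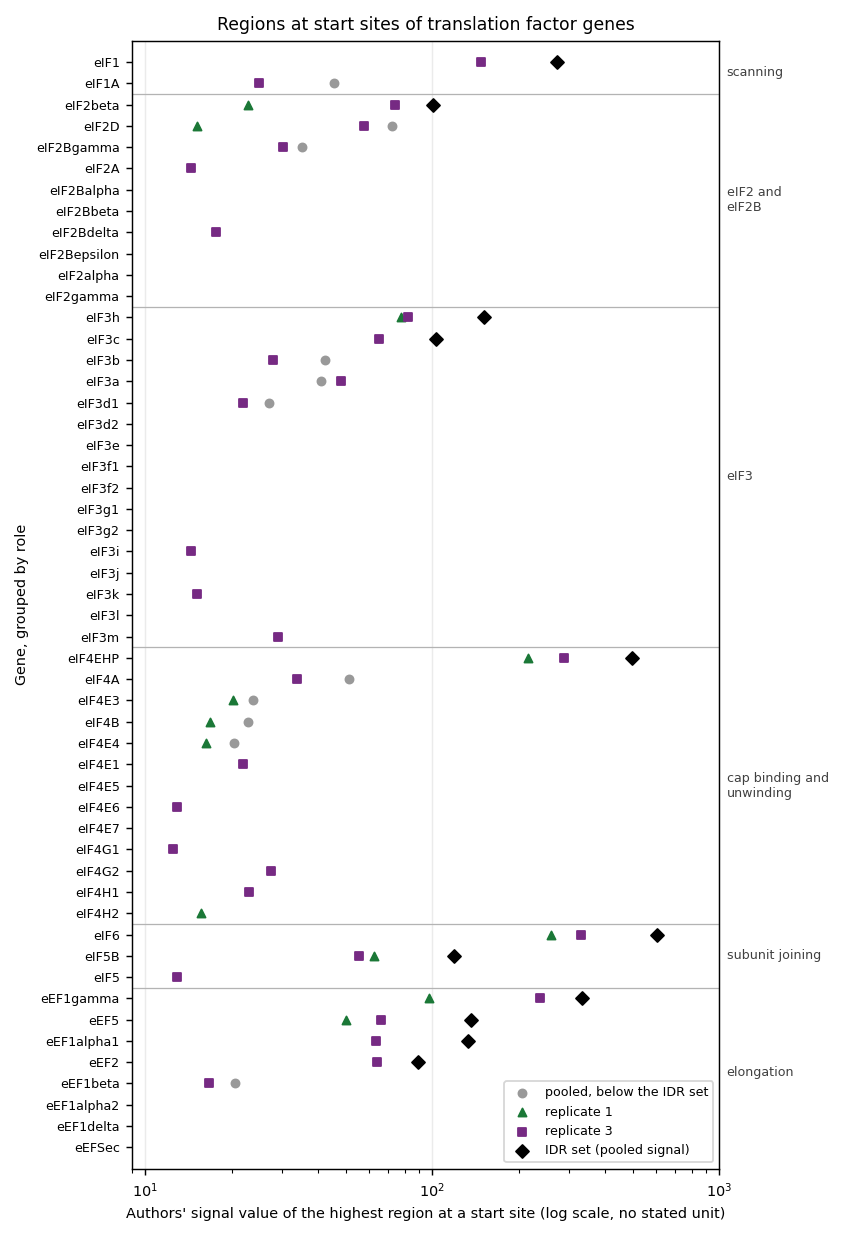
Signal of the highest region at a start site of each of the 52 genes (x axis, authors' signal value on a log scale), grouped by role, with a symbol for each list and no symbol where a list has no region there. The 11 black diamonds run from 88.73 to 603.7, and 18 genes have no symbol at all.

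A region lay at the start site in both replicates for 8 of the 52 genes (15.4%, against 17.6% of all genes), in replicate 1 alone for 4 (7.69%, against 9.03% of all genes), in replicate 3 alone for 22 (42.3%, against 28.4%) and in neither for 18 (34.6%, against 6283 of all 13968 genes). The share with a region in both was thus near that of all genes. Of the 11 bound genes, all 11 had a top-ranked region of replicate 3 and 6 had a top-ranked region of replicate 1. The other 5 are eIF2beta, whose region in replicate 1 ranked lower, and eEF1alpha1, eEF2, eIF1 and eIF3c, which had no region of replicate 1 at any start site. Bound genes without a region of replicate 1 made up 36.4% here and 11.4% over the genome, where they numbered 173. Over the 8 genes with a region in both replicates, the Spearman coefficient of the signals was 0.833, a description over few genes measured in the same 2 libraries.

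**Figure D2:**
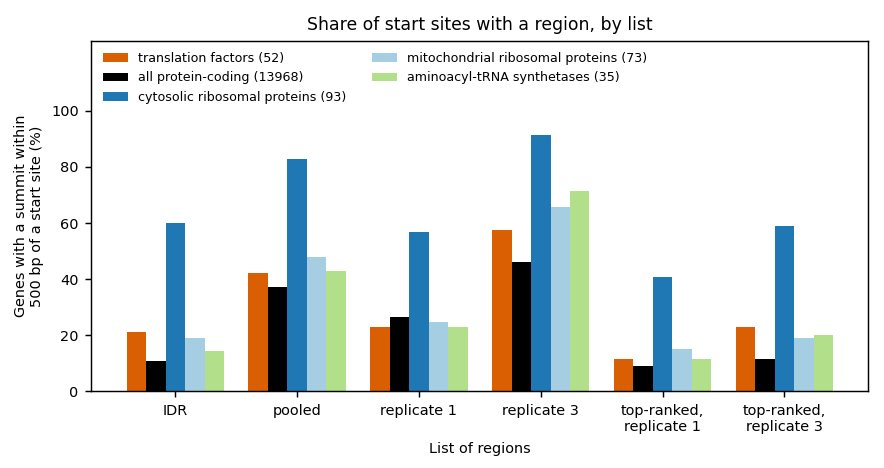
Percentage of genes with a summit within 500 bp of a start site in each list of regions (bars), for the 52 translation factor genes, all 13968 protein-coding genes and 3 other groups of translation genes. The bar of the translation factors stands above that of all genes in the IDR set (21.2% against 10.9%) and below it in replicate 1 (23.1% against 26.6%).

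The scanning factors eIF1 and eIF1A bind the small subunit and let it inspect the message for a start codon. eIF1 (FBgn0035423; 3L, 3223341 to 3224650, plus strand) had an IDR peak at 3222916 to 3223114 with a signal of 271.6, rank 493, and a region of replicate 3 with a signal of 147.3, rank 572. Replicate 1 had no region there, and its nearest summit was 10954 bp away, so this peak, the fourth highest of the 11, rests on replicate 3 and the pooled reads. The summit stood 317 bp upstream of the eIF1 start and only 64 bp from the start of RpL28, a large-subunit ribosomal protein gene on the other strand, and a snoRNA gene, snoRNA:Or-CD11a, started 483 bp away. The peak is nearer to RpL28 than to eIF1, and the assay does not assign it to either. eIF1A was not bound. It had a pooled region 327 bp upstream with a signal of 45.4, rank 5711, a region of replicate 3 with a signal of 24.9, rank 8613, and none in replicate 1.

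The factor eIF2 carries the initiator tRNA as a trimer of alpha, beta and gamma subunits, and eIF2B reloads it with GTP. Symbols starting with eIF2 belong to 10 genes, which are eIF2A and eIF2D besides the subunits of eIF2 and eIF2B. Of these 10, 1 was bound, 3 had a pooled region, 2 a region of replicate 1 and 5 a region of replicate 3. The corresponding shares of all genes were 10.9%, 37.1%, 26.6% and 46.0%. These counts include eIF2D in the last 3 lists and eIF2A in replicate 3. eIF2beta (FBgn0004926; 3L, 12525093 to 12526731, minus strand) had its IDR peak at 12526825 to 12527208, summit 286 bp upstream, with a signal of 100.4, rank 2063. The signal was 22.75 in replicate 1, rank 6012, and 74.16 in replicate 3, rank 1593. The genes of the alpha and gamma subunits had no region at a start site in any list, so the 3 subunits of the trimer were not alike. eIF2D, which can deliver tRNA to the ribosome without eIF2 in mammals, lay just outside the IDR set. Its pooled region, summit 157 bp upstream, had a signal of 72.21, rank 3087, against 74.83 for the lowest IDR peak. In replicate 3 it was top-ranked with 57.68, rank 2287, and in replicate 1 it had 15.11, rank 19769. eIF2Bgamma, an eIF2B subunit, had a pooled signal of 35.04, rank 8939, and 30.21 in replicate 3, rank 6137, with none in replicate 1.

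The largest initiation factor, eIF3, holds the small subunit ready and is built of many subunits, of which eIF3a, eIF3b and eIF3c are core members. Of its 16 genes, 2 were bound, 5 had a pooled region, 1 a region of replicate 1 and 8 a region of replicate 3. The corresponding shares of all genes were 10.9%, 37.1%, 26.6% and 46.0%. eIF3h (FBgn0022023; 2L, 5051193 to 5053094, minus strand) had its peak at 5052376 to 5052528 with a signal of 151.5, rank 1181. The replicates gave 77.47, rank 858, and 82.03, rank 1358, so both ranked it high. Its summit lay in an intron of the gene, 299 bp downstream of the nearer start and 613 bp downstream of the other, and 362 bp from the start of senju, which is transcribed the other way and was bound through the same peak. eIF3c (FBgn0034258; 2R, 17665678 to 17669275, plus strand) had its peak at 17665463 to 17665846, summit 23 bp upstream, with a signal of 103.3, rank 1989. Replicate 3 gave 65.17, rank 1926. Replicate 1 gave none, and its nearest summit was 8237 bp away. The other core genes had regions of lower signal and no IDR peak. The pooled signal of eIF3a was 41.02, rank 6706, with 47.93 in replicate 3, rank 3008. That of eIF3b was 42.2, rank 6388, with 27.87 in replicate 3, rank 7024. Neither had a region of replicate 1, and 8 eIF3 genes (eIF3d2, eIF3e, eIF3f1, eIF3f2, eIF3g1, eIF3g2, eIF3j and eIF3l) had none at a start site in any list.

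The genes of cap binding and unwinding encode the cap-binding eIF4E proteins, the scaffold eIF4G, the helicase eIF4A with its partners eIF4B and eIF4H, and eIF4EHP, a cap-binding protein that competes with eIF4E and represses caudal mRNA in the fly embryo. Of these 13 genes, 1 was bound and 5 had a pooled region, with 5 in replicate 1 and 7 in replicate 3. The corresponding shares of all genes were 10.9%, 37.1%, 26.6% and 46.0%. The bound gene was the repressor, eIF4EHP (FBgn0053100; 3R, 24063077 to 24108960, minus strand). Its peak at 24109008 to 24109378 had a signal of 497.9, rank 213, with 214.7 in replicate 1, rank 206, and 288.2 in replicate 3, rank 213. The ranks were nearly equal in all 3 lists. The summit lay 216 bp upstream of eIF4EHP and 160 bp from the start of CG18428 on the other strand, in the 376 bp between both starts, and both genes were bound through it. eIF4A had a pooled signal of 51.06, rank 4822, and 33.79 in replicate 3, rank 5102, with none in replicate 1. The other genes of the group had signals of at most 23.72 in the pooled list. The 4 genes with a region in replicate 1 alone, eIF4B, eIF4E3, eIF4E4 and eIF4H2, all belong here. Their replicate 1 signals were low, at 16.79, 20.21, 16.24 and 15.61. The median of that list was 16.77 and its lowest signal 12.6.

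At subunit joining, eIF5 triggers GTP hydrolysis by eIF2, eIF5B joins the subunits, and eIF6 keeps free large subunits from joining too early. eIF6 had the highest peak of the 52 genes (FBgn0034915; 2R, 23849246 to 23850301, minus strand). The peak at 23850273 to 23850536 had a signal of 603.7, rank 167, with 259.5 in replicate 1, rank 167, and 328.4 in replicate 3, rank 183. Its summit was 104 bp upstream, in an intron of ytr on the same strand, and 75 bp from the start of the antisense RNA gene asRNA:CR45928. eIF5B (FBgn0026259; 3L, 3428658 to 3460977, minus strand) had its peak at 3460558 to 3460941, with a signal of 119.2, rank 1645. It had 62.52 in replicate 1, rank 1175, and 55.64 in replicate 3, rank 2408. The summit fell in an untranslated exon, 227 bp downstream of the 5′ end of the gene and 147 bp upstream of a second start. Both bound genes of this group were top-ranked in both replicates, and eIF5 had a region in replicate 3 alone.

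Of the 8 elongation factor genes, 4 were bound, 5 had a pooled region, 2 a region of replicate 1 and 5 a region of replicate 3. The corresponding shares of all genes were 10.9%, 37.1%, 26.6% and 46.0%. eEF1gamma (FBgn0029176; 3R, 29220172 to 29222109, plus strand) encodes a subunit of the complex that exchanges the nucleotide of eEF1A. Its peak at 29220020 to 29220270 had a signal of 333.2, rank 374, with the summit 2 bp upstream of the start. Replicate 1 gave 97.54, rank 610, and replicate 3 gave 237.4, rank 283. eEF5 (FBgn0285952; 2R, 24057798 to 24059483, plus strand), the hypusine-bearing factor that relieves stalled ribosomes, had its peak at 24057600 to 24057983, summit 6 bp upstream, with a signal of 136.3, rank 1365. Its signal was 50.06 in replicate 1, rank 1567, and 65.93 in replicate 3, rank 1898. These 2 genes were top-ranked in both replicates.

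The remaining bound elongation genes had no region of replicate 1 at their start sites. eEF1alpha1 (FBgn0284245; 2R, 11891135 to 11895762, plus strand), which encodes the carrier of aminoacyl-tRNA, had its peak at 11891893 to 11892276, with a signal of 133.1, rank 1404, and 63.68 in replicate 3, rank 1984. The summit was 37 bp upstream of an inner start at 11892122 and 950 bp downstream of the 5′ end of the gene, and the nearest region of replicate 1 was 2210 bp away with a signal of 25.23. eEF2 (FBgn0000559; 2L, 21677913 to 21682164, minus strand), the translocase, had the lowest of the 11 peaks, at 21681869 to 21682252, with a signal of 88.73, rank 2433, and 64.07 in replicate 3, rank 1968. Its summit lay in an untranslated exon 55 bp downstream of a start site. eEF1alpha2, a paralog of eEF1alpha1, had no region at a start site in any list, nor had eEF1delta or eEFSec.

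Many of the summits at the 11 bound genes lay close to a start site. The distance to the nearest start was within 60 bp for 5 of them (45.5%), against 12.4% of all bound genes, a limit set after the values were seen. The share was higher at the cytosolic ribosomal protein genes, where 44 of the 56 bound genes (78.6%) had one within 60 bp. The 5 factor genes are 4 elongation genes and eIF3c. The median distance was 104 bp, against 173.5 bp over all bound genes. The summit stood upstream of the nearest start for 9 genes and downstream for 2, eIF3h and eEF2. In replicate 3 the summit stood upstream at 7 and downstream at 4 of the 11. At eIF4EHP the summit of replicate 1 lay 303 bp upstream and that of replicate 3 lay 238 bp upstream, the widest gap between replicates among the 7 bound genes with a region in both.

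**Figure D3:**
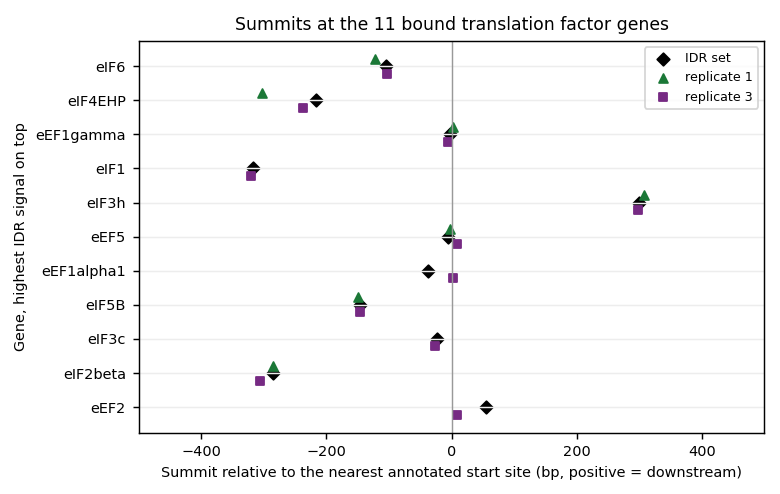
Position of the summit relative to the nearest annotated start site (x axis, bp, positive values downstream) at the 11 bound genes, by list. The 4 elongation genes and eIF3c have IDR summits within 60 bp of the start, and eIF1, eIF2beta and eIF3h lie the farthest from it.

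By annotation, most bound genes had a protein-coding gene starting on the other strand close upstream, wherever the summit of their peak lay. A protein-coding gene starting on the other strand within 1000 bp upstream was found for 7 of the 11 bound genes (63.6%) and for 19 of the 41 others (46.3%). Non-coding genes, such as asRNA:CR45928 near eIF6, were not counted. The same held for 61.5% of all bound genes and 36.2% of all genes, so the share at bound factor genes was near that of all bound genes. Of the 7 neighbours, 3 were bound through the same peak, namely RpL28, senju and CG18428. The other 4, ERp60 near eEF1alpha1, ppk29 near eEF5, CG46463 near eIF5B and CCHa1-R near eIF3c, were not bound.

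The base composition at the summits of the 11 bound genes varied widely. GC content within 50 bp of the summit on each side, the summit window, ran from 21.8% at eIF4EHP to 54.5% at eEF1gamma, with a median of 44.6% over the 11 genes. Over all 1214 IDR peaks at protein-coding starts the median was 32.7%, with quartiles of 27.7% and 39.6%, and over the 56 peaks at cytosolic ribosomal protein genes it was 47.5%. Only eIF4EHP lay below the median of all start-site peaks. This comparison was chosen after the values were seen.

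**Figure D4:**
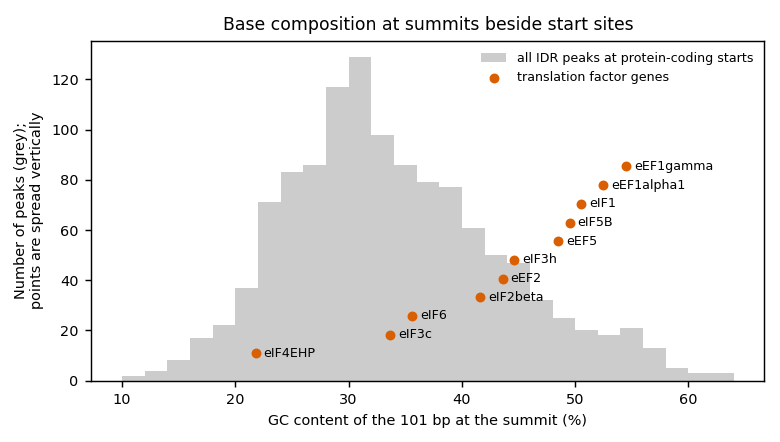
GC content (x axis, percent) of the summit window for all IDR peaks at protein-coding starts (grey histogram, number of peaks) and for the 11 bound genes (orange points, spread vertically for legibility). Most orange points lie to the right of the grey maximum, and eIF4EHP lies to its left.

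The word ACAGTTTG was searched in the summit windows of the factor genes. It was chosen from the 2948 IDR peaks that touch none of the 52 genes, of which 166 (5.63%) held it in the summit window on either strand, against 0.695% of windows 200 to 300 bp away. None of the 14 peaks at or inside the factor genes held it there, nor did any with 1 mismatch allowed, against 20.2% of the other peaks. With 1 mismatch the share in windows 200 to 300 bp away was itself 10.1%. For an exact match, 5.63% of 14 peaks is less than 1 peak, so the count of 0 is near the background. Windows around the summit reached at most 100 bp on each side, so wider peaks were not covered in full. With 1 mismatch and 100 bp on each side of the summit, 2 of 14 matched, against 885 of the 2948 other peaks. Among the other peaks the share with the word was 26.5% in the highest 10% by signal and 3.89% in the 2597 with signals in the range seen at the factor genes.

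Other promoter motifs were found at some of the genes. A DRE, TATCGATA, lay from 250 bp before to 50 bp after a start site, on either strand, in 3 of the 11 bound genes (27.3%; eEF1gamma, eIF3c and eIF6) and in 12 of the 41 others (29.3%). The share was 13.1% over all bound genes and 10.2% over all genes, so the element was common at translation factor genes with or without a peak. Within the summit window it was present at 2 of 11 genes, eEF1gamma and eIF1 (18.2%), against 2.06% of all start-site peaks, a count made after the values were seen. At eIF1 the element lay more than 250 bp before the eIF1 start and nearer to the start of RpL28 on the other strand. CTTT, with its C within 5 bp of a start site on the gene's strand, occurred in 3 of the 11 bound genes (27.3%; eEF1alpha1, eEF2 and eEF5) and in 4 of the 41 others (9.76%; eIF3f1, eIF3i, eIF3m and eIF4A). It occurred in 12.3% of all bound genes and 8.06% of all genes, and all 3 bound genes that hold it are elongation factor genes. TATAAA, from 45 to 15 bp before a start site, occurred in none of the 11 bound genes and in eIF3b and eIF4E7 of the others. Across all bound genes its share was 5.38%, and across all genes 10.6%.

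Inside the genes, away from start sites, IDR peaks were few and lay in the longest genes. An IDR summit inside the gene and over 500 bp from its starts was found in 2 of the 52 genes (3.85%), against 5.85% of all genes. The 2 are eIF4EHP, 45884 bp long, and eIF5B, 32320 bp long. They are the only factor genes over 30 kb, and 273 of all 670 genes over 30 kb had an IDR summit inside. The median length was 1955 bp for the 52 genes, 2164.5 bp for all genes and 18851 bp for all genes with an IDR summit inside.

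All 3 of these peaks lay in introns. The peak in eIF4EHP (3R, 24098935 to 24099318) stood 9833 bp from the nearest start, with a signal of 108.3, rank 1870. It had 52.79 in replicate 3, rank 2607, and no region in replicate 1. In eIF5B, the peak at 3L, 3432618 to 3433001 stood 27793 bp from the nearest start, with a signal of 108.9, rank 1853. Both replicates held it, with 39.37 in replicate 1, rank 2108, and 74.01 in replicate 3, rank 1598. The second peak of eIF5B (3438435 to 3438818) stood 21976 bp from the nearest start, with a signal of 79.6, rank 2777. It had 21.54 in replicate 1, rank 7028, and 56.12 in replicate 3, rank 2383, so it sat near the lower edge of the IDR set.

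The unthresholded lists showed the same concentration in these 2 genes. Regions inside the gene were found for 12 genes in the pooled list (23.1%, against 29.3% of all genes), 7 in replicate 1 (13.5%, against 30.9%) and 11 in replicate 3 (21.2%, against 29.8%). Of 38 pooled regions, 27 lay in eIF4EHP or eIF5B, as did 17 of 22 in replicate 1 and 30 of 40 in replicate 3. Most were intronic, 28 of 38 in the pooled list. Outside the 2 long genes the highest was a region in a coding exon of eEFSec, the elongation factor for selenocysteine, with a signal of 41.75 in the pooled list and 36.46 in replicate 3. Its summit lay 1543 bp from the eEFSec start in the pooled list and 1622 bp in replicate 3. An IDR summit lay 1843 bp from that start, past the 3′ end of this gene of 1670 bp. That IDR peak stood within 500 bp of the start of another protein-coding gene. Whether the signal in eEFSec is separate from that peak was not tested.

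**Figure D5:**
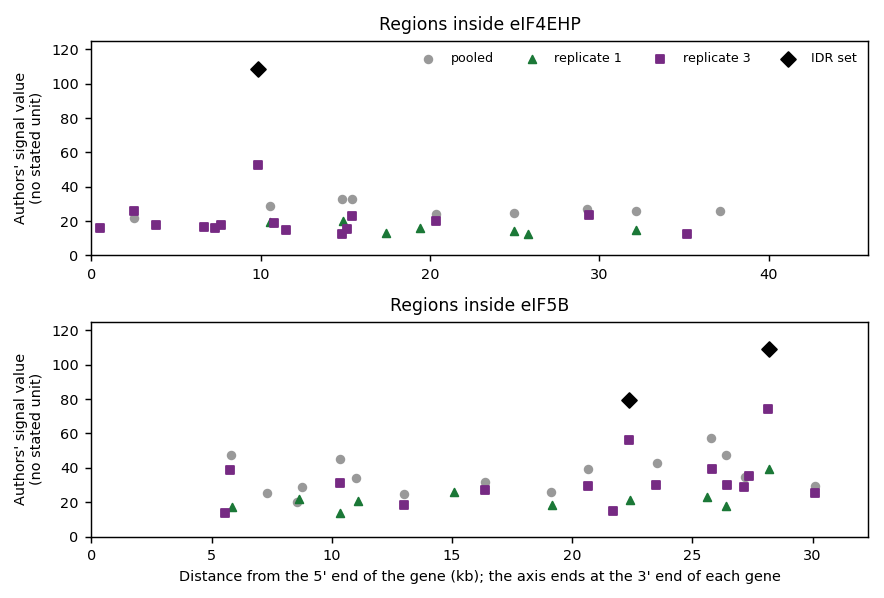
Signal of every region inside eIF4EHP and eIF5B and over 500 bp from a start site (y axis, authors' signal value), by distance from the 5′ end of the gene (x axis, kb) and by list. The 3 IDR peaks stand at 108.3 in eIF4EHP and at 79.6 and 108.9 in eIF5B, above the other pooled regions of both genes.

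The genes without an IDR peak were for the most part far from one. The nearest IDR summit to a start site lay between 683 bp (eIF2Bbeta) and 4979387 bp (eIF4B) away, with a median of 19905 bp over the unbound factor genes and 16138 bp over all unbound genes. By arm, 2 of 5 genes were bound on 2L, 4 of 13 on 2R, 3 of 11 on 3L and 2 of 15 on 3R. None of the 7 genes on X was bound, nor was the single gene on chromosome 4. Over all genes the bound share was 10.3% on X and between 9.89% and 11.7% on the large autosomal arms.

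Other genes of the translation apparatus, grouped by lists chosen with earlier results of these data known, spanned a wide range of shares. An IDR peak stood at 56 of 93 cytosolic ribosomal protein genes (60.2%), with RpS27 (520.6), RpL7 (384.5) and RpLP2 (366.2) highest in signal. It stood at 14 of 73 mitochondrial ribosomal protein genes (19.2%), led by mRpL41 (857.5), mRpS10 (812.8), mRpS23 (708.9) and mRpL23 (514.6). Of 35 aminoacyl-tRNA synthetase genes, 5 were bound (14.3%), and their highest signals were 223.2 at IleRS, 175.0 at ThrRS, 166.3 at SerRS and 116.2 at GluProRS. None of the 5 release and rescue factor genes or of the 17 translational regulators matched had an IDR peak, against 10.9% of all genes. In the pooled list a region stood at 4 of the former (80.0%) and 8 of the latter (47.1%), against 37.1% of all genes. Replicate 3 had 5 and 12, against 46.0% of all genes, and replicate 1 had 2 and 0, against 26.6%. Of 9 mitochondrial translation factor genes, 1 had an IDR peak, mIF2, with a signal of 2497 and rank 39. That signal is higher than at any of the 52 cytosolic factor genes. The factor genes thus had a share near that of the mitochondrial ribosomal proteins and well below that of the cytosolic ones, and no test was made of these differences.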

How the data were processed

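ChIP-seq of GFP-tagged CG6654 was analysed from the peak lists the authors deposited on dm6 for 2 biological replicates of 1 group. Per the labels, chromatin was sonicated to a size range of 200 to 800. Per the text supplied with the libraries, the authors called regions against a control, once per replicate and once on the pooled reads, with no threshold, and made the IDR set from the 3 resulting lists. Which aligner, caller and IDR threshold they used is not given in the sources used here. A region's signal value is a score deposited by the authors whose scale is not stated, and its deposited −log10 q-value was used only as a description. The authors also deposited a summit offset, from which the summit position was taken. Each unthresholded list holds 30000 regions, a fixed length, so totals say nothing of depth. Lists on dm3 were not used here.

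Genes came from Ensembl release 115, without transposable elements, and sequence from RefSeq Release 6, which has the same coordinates. Summits were assigned to genes within 500 bp of any annotated start site or inside the gene. All counts stand beside the same count over all protein-coding genes, and no test was made, because there is 1 group and because the genes, lists and comparisons were chosen with earlier results of these data known. Words of 8 bases were ranked by Fisher's exact test only to choose 1 word, without the peaks of the 52 genes. Named genes are members with an IDR summit or a top-ranked region, the next 5 by pooled signal, neighbours that share a peak, the remaining members by name within the range of their group, and up to 4 leading genes per other list. eEFSec, genes with a region in replicate 1 alone, unbound neighbours and motif holders were named after their values were seen. One name in the other lists (Tor) was not matched, and 1 matched through an older symbol. Counting was tested on simulated data. Python 3.11.15, numpy 2.4.6, pandas 2.3.3, scipy 1.17.1 and matplotlib 3.10.9 were used.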

Additional observations from a re-analysis of the deposited data

How the results depend on the processing

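The count of 11 bound genes was 8 with a window of 250 bp (7.95% of all genes), 12 with 1000 bp (13.1%), 9 with the 5′ end of each gene as its only start (9.19%), and 11 when the region had only to overlap the window (11.8%). In the upper 50% of IDR peaks by signal it fell to 7, against 6.13% of all genes, with eEF2, eIF2beta, eIF3c and eIF5B lost, and the count of genes with a peak inside fell to 0. With the top-ranked regions of a single replicate, bound genes numbered 6 without replicate 3 and 12 without replicate 1, and genes with a region inside numbered from 1 to 2. Genes with an unthresholded region at a start numbered from 12 without replicate 3 to 30 without replicate 1, and 20 in the pooled list with 250 bp, against 26.4% of all genes. A reciprocal overlap of 25% in place of 50% gave 8 in place of 7 genes with regions shared by both replicates. No peak of these genes held the word exactly with 50 or 100 bp on each side of the summit. No paired analysis was possible because there is 1 group. Read depth and the scale of the signal are unknown, which limits every statement on absent regions.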
